A study of Homo sapiens with 16 samples.

Results

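The comparison described here is the effect of NORAD knockdown at 96 h set against its effect at 48 h in HCT116 cells, a line grown from a human colon cancer. It is a difference of differences: knockdown minus wild type at 96 h, minus knockdown minus wild type at 48 h, on the log2 scale. A positive value means that the effect was higher at 96 h than at 48 h, either because a rise grew or because a fall shrank. It rests on 12 of the 16 libraries of the series, chosen by their labels: 3 NORAD knockdown and 3 wild-type libraries at 96 h, and 3 knockdown and 3 wild-type libraries at 48 h. Knockdown was by CRISPR interference, induced with 0.5 µg/ml doxycycline in the medium for the time named. The treatment text is the same for wild-type samples, and the labels do not say whether those cells carried the interference system or received doxycycline, nor whether either line was a clone. Whether replicates came from separate cultures is not stated either. A p-value here therefore covers the variation among these libraries and nothing beyond it, and that variation may be technical. The other 4 libraries, 2 labelled knockdown and 2 wild type at 24 h, entered the same fit, where they add to its estimate of spread, and their own contrast is given beside some results. NORAD itself was not lower in them (log2 fold change of 0.14 with an edgeR adjusted p of 0.523), so values at 24 h are those of libraries labelled knockdown. The contrast at 24 h called 3484 genes (17.6%) at an edgeR adjusted p under 0.05. In each contrast, effects of NORAD loss, of the interference system and of the line cannot be told apart, and their parts were not tested.

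NORAD is an abundant long noncoding RNA that human cells need to keep their chromosome number stable. It carries many copies of the motif bound by the Pumilio proteins, which shorten the tails of messages and lower their translation, and a complex with RBMX and topoisomerase I has also been described on it. In CRISPR interference a catalytically dead Cas9 carries a repressor, most often the KRAB domain of ZNF10, to a promoter, and repression lasts only as long as the system is present and active. The question the comparison addresses is which differences between knockdown and wild type appear or deepen late and which fade while NORAD returns in part.

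The sequences of the target are shown first because the comparison turns on its partial return. NORAD (ENSG00000260032, annotated as lincRNA, minus strand of chr20:36045622-36050960 in GRCh38) has the following promoter in RefSeq on GRCh38.p14, chr20:36050911-36051210 on the minus strand, with 250 bases before and 50 after the start. Its transcript of 5339 bases holds 15 matches to the Pumilio motif (TGTA, any base, then ATA), of which 3 are printed with their flanks, named by the first base of the match counted from the transcript's 5′ end. Capitals mark the motif. The position of the guide is not given in the sources used here.
NORAD promoter: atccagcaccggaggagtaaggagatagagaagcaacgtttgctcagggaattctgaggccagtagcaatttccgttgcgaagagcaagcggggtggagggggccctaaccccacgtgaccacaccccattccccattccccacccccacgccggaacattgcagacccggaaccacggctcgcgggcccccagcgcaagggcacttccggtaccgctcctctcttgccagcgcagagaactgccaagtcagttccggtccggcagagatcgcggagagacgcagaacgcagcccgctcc
NORAD position 761: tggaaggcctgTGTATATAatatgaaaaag
NORAD position 1241: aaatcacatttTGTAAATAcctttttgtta
NORAD position 2972: caaccctactgTGTATATAgcggacaaact

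The 12 libraries held 36610474 to 51853876 estimated counts each. In a principal component analysis of them, component 1 (44.2% of the variance) separated 96 h from 48 h. Component 2 (17.4%) set knockdown apart from wild type at 48 h, with 1 exception: knockdown replicate 3 at 48 h scored 10.7, against -52.8 and -61.4 for replicates 1 and 2 and 22.2 to 47.6 for wild type at 48 h. Retained-intron transcripts held 4.37%, 4.50% and 4.73% of the counts in knockdown and 4.41%, 4.34% and 4.49% in wild type at 96 h. At 48 h they held 5.56%, 5.14% and 4.05% in knockdown replicates 1 to 3 and 3.93%, 4.13% and 4.10% in wild type, so replicate 3 lay within the wild-type range on this measure. On component 3 (7.7%) it scored -58, against -0.64 and 9.33 for replicates 1 and 2 and -0.29 to 27.1 for wild type at 48 h, and so stood apart from both groups. The part of this library in the results was not tested beyond leaving it out, and counts are given with and without it. The 8 colon epithelial markers fixed for HCT116 summed to 4057 to 6855 CPM (read counts scaled to library size) in the 12 libraries. Sums over the tested markers of other cell types were 9.13 to 29.4 CPM for leukocytes (4 of 10 tested), 33.9 to 80.6 CPM for fibroblasts (4 of 8), 1.85 to 3.75 CPM for endothelium (6 of 7) and 23.3 to 40.7 CPM for neural cells (6 of 7).

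NORAD remained lower in knockdown than in wild type at both times, and its deficit was smaller at 96 h. It had 79.9, 72.7 and 66.2 CPM in knockdown at 96 h against 181, 184 and 183 CPM in wild type, and 21.8, 18.1 and 24.8 CPM in knockdown at 48 h against 156, 155 and 162 CPM in wild type. Knockdown and wild-type libraries did not overlap at either time, and every knockdown library at 96 h was above every one at 48 h. Knockdown stood at 39.9% of wild type at 96 h and 13.7% at 48 h. The log2 fold change was -1.33 at 96 h and -2.88 at 48 h, a difference of 1.55 (SE 0.139, edgeR adjusted p = 1.25e-06). Over time NORAD rose in knockdown (1.76) and did not pass in wild type (0.21, edgeR adjusted p = 0.077). ZNF10, whose KRAB domain is the usual repressor of such systems, had 39.3, 32.6 and 33.98 CPM in knockdown at 96 h and 8.35, 4.72 and 16.7 CPM in knockdown at 48 h, while no wild-type library exceeded 0.192 CPM. Every knockdown library at 96 h was thus above every one at 48 h for ZNF10. The ZNF10 difference, which also rests on these very low wild-type levels, did not pass (1.18, edgeR adjusted p = 0.726). Reads of the gene and of a repressor made from it cannot be told apart.

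**Figure D1:**
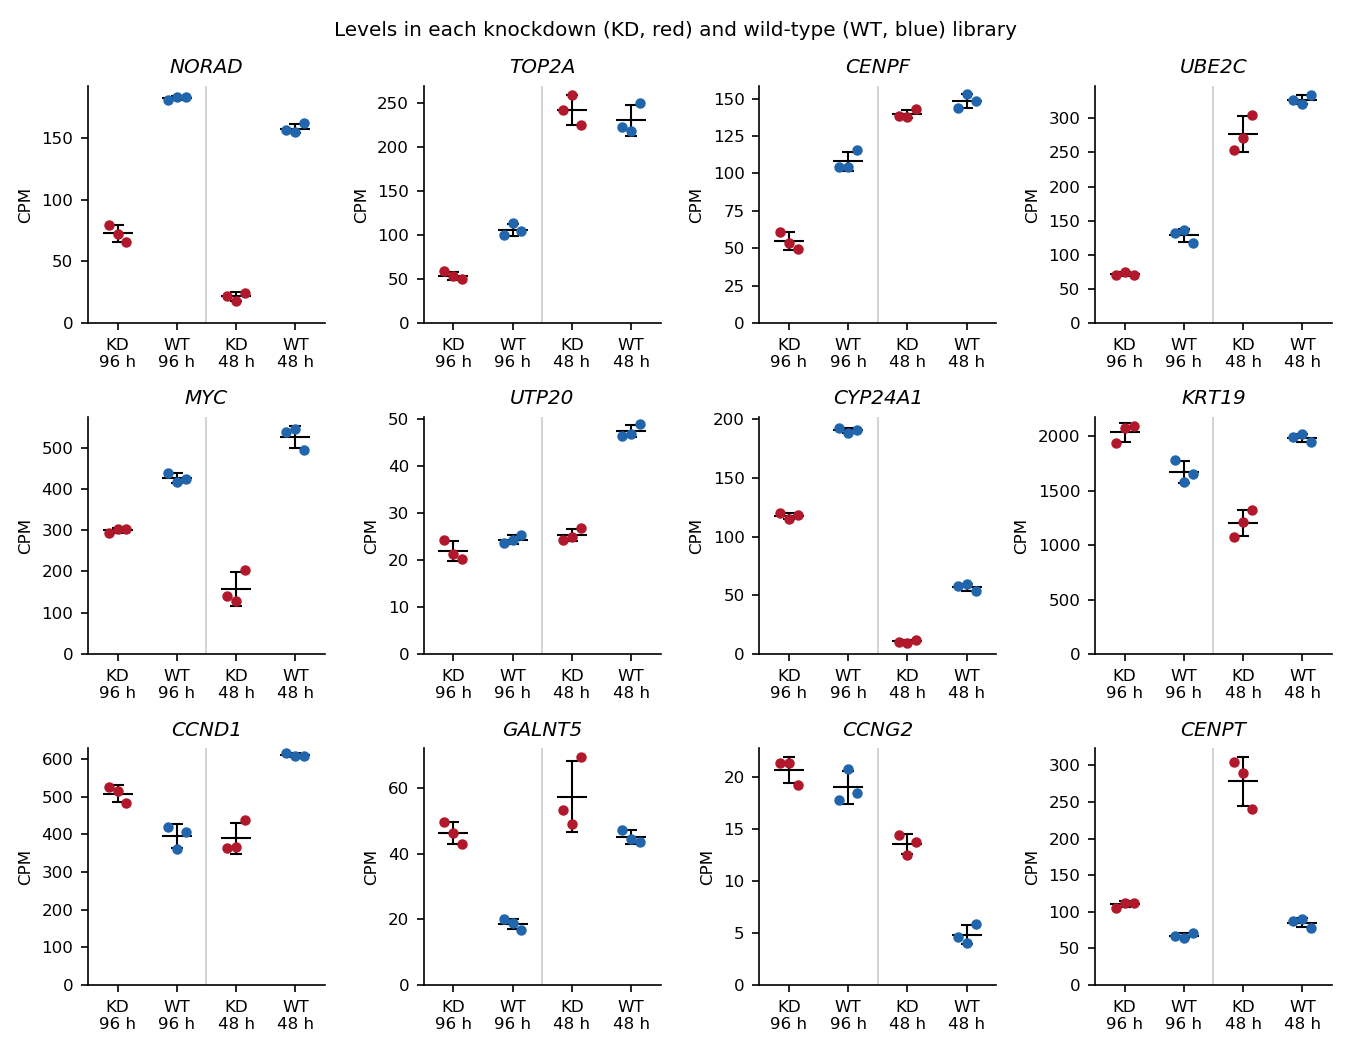
Read counts scaled to library size (CPM, linear axes from 0) of 12 genes in each library of knockdown (KD, red) and wild type (WT, blue) at 96 h and 48 h; points are libraries, the bar is the mean and whiskers are the SD (n = 3). NORAD is lower in knockdown at both times and less so at 96 h, TOP2A, CENPF and UBE2C fall far below wild type at 96 h, and MYC, UTP20, CYP24A1, KRT19 and CCND1 are lowest relative to wild type at 48 h.

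Of 19836 genes tested, 2171 (10.9%) passed for the difference at an edgeR adjusted p under 0.05, 1337 (6.74%) with a positive and 834 (4.2%) with a negative difference. The single comparisons called 2083 genes (10.5%) at 96 h and 6591 (33.2%) at 48 h. Fading was the most frequent pattern: 1641 of the 2171 genes, or 75.6%, passed at 48 h and had a smaller or uncalled effect at 96 h. Another 366 were late or deepened, meaning called at 96 h and further from wild type there. In 83 the effect was called in opposite directions at the 2 times, and 81 fitted none of these. These classes were cut from the same values as the test and are a description. Most genes called at 48 h and not at 96 h, 3831 of 5323, had no call for the difference, so the missing call at 96 h does not show that their effect changed. Of the 1185 genes called at both times in 1 direction, 1002 had no call for the difference. One of these was CEMIP, a gene of hyaluronan breakdown, with log2 fold changes of 3.70 at 96 h and 3.56 at 48 h; it was chosen after its values were seen.

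**Figure D2:**
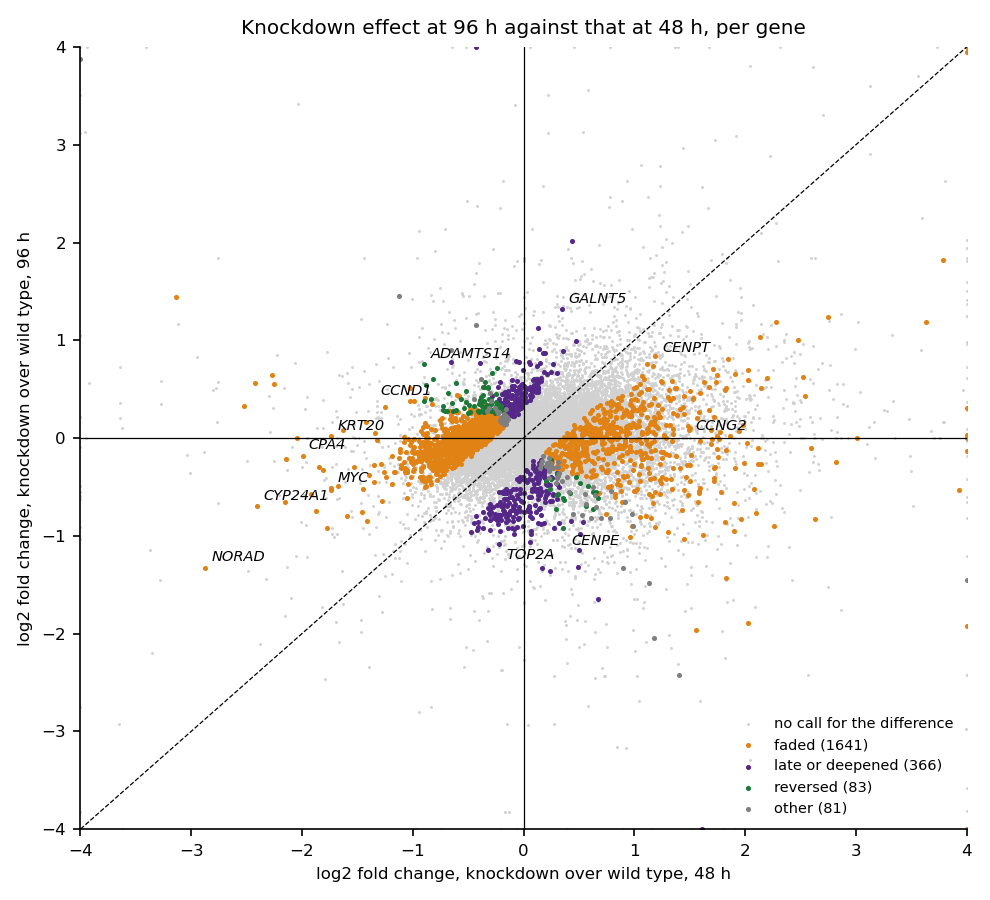
Log2 fold change of knockdown over wild type at 96 h (vertical) against 48 h (horizontal) for each of 19836 genes, with effects beyond 4 drawn at the edge; colours mark the classes of genes called for the difference, and the dashed line is equality. The 1641 faded genes lie along the horizontal axis, and the 366 late or deepened genes lie along the vertical axis.

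Without knockdown replicate 3 at 48 h the count was 5250 (26.5%), 3104 with a positive and 2146 with a negative difference. It held 2163 of the 2171 genes, all with the same sign. Leaving out any other library gave between 1261 and 2139 calls. The balance of signs depended on scaling. Positive differences made up 61.6% of calls under the main scaling and 65.9%, 48.9%, 40.6% and 29.8% under DESeq2 size factors, an abundance-dependent scaling, upper-quartile scaling and total counts. The median difference of all genes was -0.04 under the main scaling and -0.14 and -0.18 under the last pair, and the sign of small differences is therefore given only where other scalings keep it or are named. The median effect of all genes was -0.01 at 96 h and 0.06 at 48 h.

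**Figure D3:**
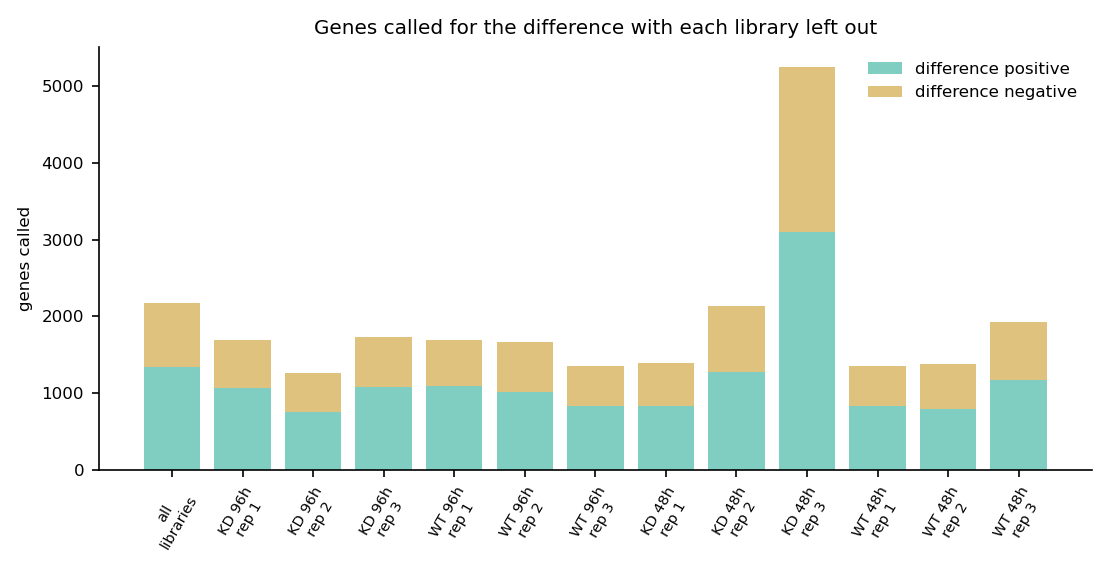
Number of genes called for the difference (edgeR adjusted p under 0.05) with all libraries and with each of the 12 libraries left out in turn, split by sign. Leaving out knockdown (KD) replicate 3 at 48 h gives 5250 calls, against 2171 with all libraries and 1261 to 2139 without any other single library.

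Genes of mitosis fell late. All 48 tested genes of a list of mitotic kinases, spindle and cyclin genes were lower in knockdown at 96 h, where 5.15% of all genes were, and 16 were lower and 2 higher at 48 h, where 18.5% of all genes were lower and 14.8% higher. The difference passed with a negative sign in 42 of 48, where 4.2% of all genes did so, and in none with a positive sign; 26 of the 42 were late, 14 deepened and 2 changed sign. The median log2 fold change of the list was -0.80 at 96 h and -0.18 at 48 h, and the median difference was -0.61. Between 42 and 46 members passed under the 4 other scalings, 44 without knockdown replicate 3 at 48 h, and 34 to 44 with any 1 library left out. The split into late and deepened genes depended on scaling. At 48 h 17 members were lower with DESeq2 size factors, 11 under upper-quartile, 8 under total-count and 7 under abundance-dependent scaling. Those higher at 48 h numbered 2, 5, 6 and 5. Against the wild-type mean of the same time, the list's median stood at -0.75, -0.76 and -0.86 in the 3 knockdown libraries at 96 h and at -0.24, -0.27 and -0.05 in replicates 1 to 3 at 48 h. A smaller number of dividing cells and less of these RNAs per cell cannot be told apart in bulk RNA. The time course was not a steady decline, since the median was -0.46 at 24 h, -0.18 at 48 h and -0.80 at 96 h, with 38 members lower at 24 h, where 12.4% of all genes were. Between 48 h and 96 h, 48 members fell in knockdown (median -1.40) and 47 fell in wild type (median -0.79), where 26.3% and 22.7% of all genes did.

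TOP2A, the topoisomerase that untangles sister chromatids (ENSG00000131747, chr17:40388516-40417950, minus strand), had 58.7, 52.96 and 49.8 CPM in knockdown at 96 h against 100.3, 113 and 105 CPM in wild type. At 48 h it had 242, 259 and 226 CPM in knockdown and 223, 218 and 251 CPM in wild type. Knockdown was below every wild-type library at 96 h and overlapped with wild type at 48 h; the difference was -1.05 (SE 0.111, edgeR adjusted p = 9.21e-06). CENPF, a kinetochore protein gene (ENSG00000117724, chr1:214603195-214664588, plus strand), had 61.1, 53.5 and 49.2 CPM in knockdown and 104, 105 and 116 CPM in wild type at 96 h. At 48 h its knockdown libraries had 139, 138 and 143 CPM and its wild-type libraries 144, 153 and 148 CPM. Its groups stood far apart at 96 h, and at 48 h the knockdown libraries lay just below wild type without a call, with a difference of -0.90 (SE 0.106, edgeR adjusted p = 2.43e-05). Differences of the same kind were found for the mitotic kinesin KIF14 (-1.04), CDCA3, an adaptor for mitotic entry (-0.75), and the midzone protein PRC1 (-0.72). All 5 genes were called at 96 h, and none had a call at 48 h.

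A second set of mitotic genes was already called lower at 48 h under the main scaling and deepened. UBE2C, the ubiquitin-conjugating enzyme of the anaphase-promoting complex, had 69.7, 74.9 and 70.9 CPM in knockdown at 96 h against 132, 136 and 117 CPM in wild type, and 254, 272 and 306 CPM in knockdown at 48 h against 327, 321 and 334 CPM in wild type. Knockdown libraries lay below wild type at both times, with a wider gap relative to wild type at 96 h (-0.84, against -0.24 at 48 h; edgeR adjusted p = 0.00113 for the difference). Cyclin B1, CCNB1, which activates CDK1 for entry into mitosis, went the same way (-0.95 at 96 h and -0.42 at 48 h), as did CDK1 (-0.77 and -0.26), the kinase PLK1 (-0.82 and -0.26) and CDCA8 of the chromosomal passenger complex (-0.79 and -0.23). BUB3, a checkpoint protein, was 1 of the 6 members with no call for the difference, with a log2 fold change of -0.32 at both times; it was chosen after its values were seen. CENPI, a centromere protein gene, had the most negative difference of any gene that averaged at least 5 CPM and was called in all 12 leave-one-out fits (-1.80, SE 0.343, edgeR adjusted p = 0.00418) at a low level of 3.30, 1.18 and 2.38 CPM in knockdown and 5.49, 6.08 and 5.53 CPM in wild type at 96 h.

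Promoters of some of these genes are shown because 1 sequence feature was frequent in the mitosis list. The cell cycle gene homology region (CHR), searched as TTTGAA on both strands, is the element to which the DREAM and MuvB complexes bind in late cell cycle genes, and it often lies near CCAAT boxes. RefSeq promoters on GRCh38.p14 were found for 41 of the 48 mitosis genes, and TTTGAA was in 31 of them (75.6%), against 1307 of 12710 promoters of tested genes (10.3%) and 15.4% of all 27305 promoters. Of the 201 late or deepened genes with a negative difference, 156 had a promoter and 61 (39.1%) held TTTGAA. These 201 include the 26 late and 14 deepened genes of the mitosis list, so the shares of the 2 sets are not separate observations. The late or deepened genes with a positive difference held it in 5.04%. CCAAT on either strand was in 80.5% of the mitosis promoters, 62.8% of the late or deepened lower ones and 36.1% of those of tested genes. A match is a description of letters and not a shown site, and the 2 motifs can share an end base. The promoters printed all hold both motifs, whereas that of CCNB1 holds CCAAT without TTTGAA and is not printed. Capitals mark TTTGAA and CCAAT on either strand in the promoters of CENPF (chr1:214602945-214603244, plus strand), CDCA3 (chr12:6851237-6851536, minus strand), PLK1 (chr16:23678639-23678938, plus strand) and TOP2A (chr17:40417847-40418146, minus strand), each from 250 bases before to 50 after the start.
CENPF: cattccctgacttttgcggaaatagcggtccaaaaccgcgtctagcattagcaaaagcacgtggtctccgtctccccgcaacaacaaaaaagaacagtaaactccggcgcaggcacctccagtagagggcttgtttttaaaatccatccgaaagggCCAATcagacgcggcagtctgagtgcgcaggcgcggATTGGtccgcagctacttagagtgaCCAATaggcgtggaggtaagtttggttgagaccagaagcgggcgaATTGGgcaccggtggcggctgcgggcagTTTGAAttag
CDCA3: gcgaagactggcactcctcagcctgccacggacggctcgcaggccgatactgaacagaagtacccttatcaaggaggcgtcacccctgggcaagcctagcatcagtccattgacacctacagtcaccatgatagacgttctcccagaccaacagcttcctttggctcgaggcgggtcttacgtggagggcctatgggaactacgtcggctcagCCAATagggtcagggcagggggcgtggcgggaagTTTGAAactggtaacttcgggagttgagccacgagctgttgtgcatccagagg
PLK1: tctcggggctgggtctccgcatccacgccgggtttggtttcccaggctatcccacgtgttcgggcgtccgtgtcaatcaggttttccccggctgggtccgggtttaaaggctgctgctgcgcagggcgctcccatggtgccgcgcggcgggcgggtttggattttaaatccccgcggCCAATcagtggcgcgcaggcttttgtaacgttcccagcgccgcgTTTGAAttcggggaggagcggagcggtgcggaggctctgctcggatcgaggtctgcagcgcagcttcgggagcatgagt
TOP2A: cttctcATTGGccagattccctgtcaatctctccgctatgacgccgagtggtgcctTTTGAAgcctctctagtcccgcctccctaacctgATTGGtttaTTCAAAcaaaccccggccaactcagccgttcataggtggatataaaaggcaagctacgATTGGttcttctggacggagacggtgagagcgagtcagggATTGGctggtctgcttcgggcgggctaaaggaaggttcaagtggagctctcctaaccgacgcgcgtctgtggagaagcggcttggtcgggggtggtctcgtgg

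**Figure D4:**
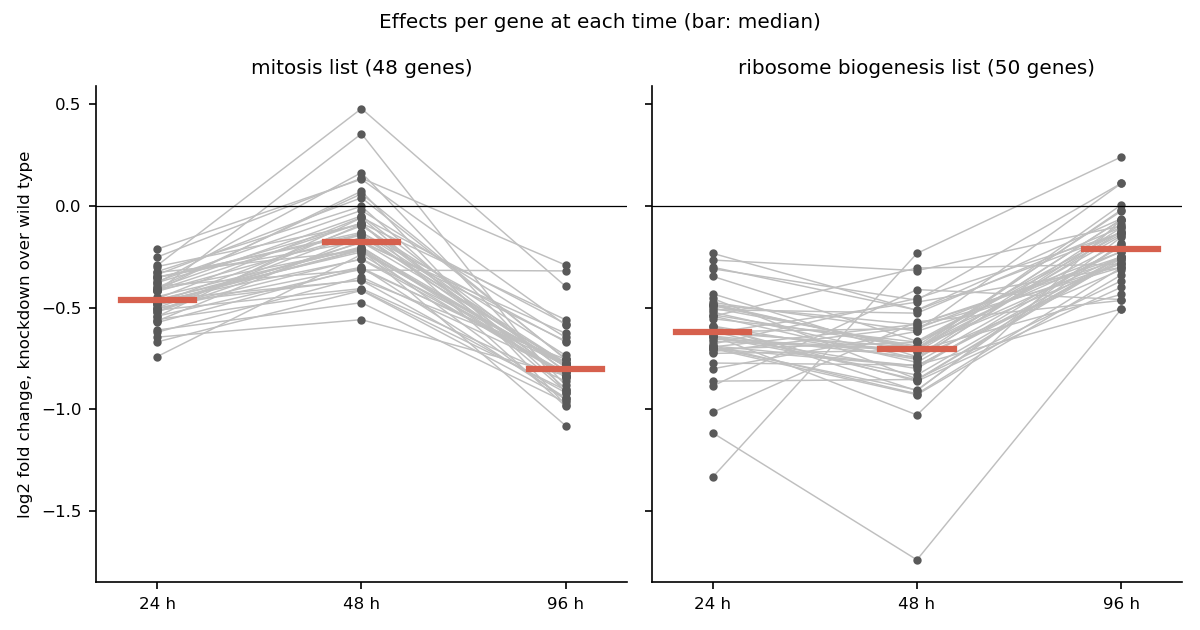
Log2 fold change of knockdown over wild type (vertical) at 24 h, 48 h and 96 h for each tested member of the mitosis list (left, 48 genes) and the ribosome biogenesis list (right, 50 genes), with a line per gene and a bar at the median. The mitosis medians are -0.46, -0.18 and -0.80 and the ribosome biogenesis medians -0.62, -0.70 and -0.21 in order of time.

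Genes of chromosome structure shared the late fall in part. Of 23 tested cohesin and condensin genes, 8 passed with a negative difference, where 4.2% of all genes did (12 to 14 under upper-quartile, total-count and abundance-dependent scaling, and 11 without knockdown replicate 3 at 48 h) and none with a positive one, and the list's median was -0.44 at 96 h and -0.09 at 48 h. SMC4, a core ATPase of condensin, had 51.8, 41.7 and 40.98 CPM in knockdown and 73.01, 91.8 and 81.2 CPM in wild type at 96 h, and 158, 182 and 138 CPM in knockdown and 136, 134 and 152 CPM in wild type at 48 h. Its groups were apart at 96 h and overlapped at 48 h (difference -1.05, SE 0.149, edgeR adjusted p = 0.00022). The other 3 condensin genes named by the rule were NCAPG (-0.84), SMC2 (-0.71) and NCAPD2 (-0.55). Among 49 DNA replication genes, 43 were lower at 96 h, where 5.15% of all genes were, and 36 at 48 h, where 18.5% were, but the difference passed in 7, all negative, against 4.2% of all genes (16 under abundance-dependent scaling). Those 7 included POLE (-0.57) and POLA1 (-0.57), catalytic subunits of replicative polymerases, CLSPN (-0.59) and the thymidine kinase TK1 (-0.47). Of 39 repair genes 22 were lower at 96 h and 14 at 48 h, and 7 passed with a negative and 3 with a positive difference, against 4.2% and 6.74% of all genes, and 12 were negative and 1 positive under upper-quartile and total-count scaling. MDC1, the mediator that binds phosphorylated H2AX at breaks, had 13.8, 11.7 and 12.4 CPM in knockdown and 23.9, 24.6 and 30.9 CPM in wild type at 96 h, and 40.7, 29.1 and 46.4 CPM in knockdown and 39.3, 38.1 and 33.7 CPM in wild type at 48 h. Its groups were apart at 96 h, and at 48 h its knockdown libraries enclosed the wild-type range (difference -1.12, edgeR adjusted p = 0.00363). The Fanconi anaemia genes FANCA (-0.65) and FANCD2 (-0.47) also had negative differences, and UNG, the uracil DNA glycosylase, had a positive one (0.62).

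Late rises were fewer and of another kind. Of the 165 late or deepened genes with a positive difference, 160 had no call at 48 h, and their median was 0.42 at 96 h and -0.06 at 48 h. Some claudins, the membrane proteins of tight junctions, were among them. Of the 8 claudins tested in the adhesion list, CLDN3, CLDN4 and CLDN7 had positive differences, CLDN15 a negative one (-0.44), a rise at 48 h that faded, and 4 had no call, among them CLDN6 (-1.24, at no more than 0.62 CPM). CLDN4 had 333, 349.9 and 358 CPM in knockdown and 254, 225 and 222 CPM in wild type at 96 h, and 164, 176 and 197 CPM in knockdown and 212, 212 and 198 CPM in wild type at 48 h. Knockdown was above every wild-type library at 96 h and below every one at 48 h, where the effect did not pass (-0.21, edgeR adjusted p = 0.0547); the difference was 0.78 (SE 0.117, edgeR adjusted p = 0.000287). CLDN7 was 0.58 at 96 h and -0.06 at 48 h. In the list of 41 adhesion and junction genes 15 were higher at 96 h, where 5.35% of all genes were, and 9 at 48 h, where 14.8% were. Of its differences 7 were positive and 3 negative, against 6.74% and 4.2% of all genes. Without knockdown replicate 3 at 48 h 22 were positive and 4 negative, against 15.6% and 10.8% of all genes. That negative share was near that of all genes. Of 22 genes of class I presentation, 8 were higher at 96 h, where 5.35% of all genes were, 9 at 48 h, where 14.8% were, and 14 at 24 h, where 5.14% were, so higher levels were not confined to 96 h. The difference was positive and called in 5, where 6.74% of all genes were, and negative in none (2 to 5 positive under other scalings), and 3 of the 5 were late or deepened, 1 faded and 1 fitted no class. They included HLA-C (0.44), the proteasome activator PSME1 (0.40) and the immunoproteasome subunit PSMB10 (0.79), which was lower at 48 h (-0.84). The positive count was 12, with 1 negative, without knockdown replicate 3 at 48 h. The calls of HLA-C and PSME1 were lost under abundance-dependent scaling and when wild-type replicate 3 at 96 h, knockdown replicate 2 at 96 h or knockdown replicate 1 at 48 h was left out, and each was also lost without other single libraries; that of PSME1 also under upper-quartile and total-count scaling. Reads of HLA genes can be divided wrongly between near-identical copies. Leukocyte markers summed to 25.5 to 29.4 CPM in knockdown and 13.6 to 18.4 CPM in wild type at 96 h, and to 11.7 to 13.3 CPM in knockdown and 9.13 to 11.6 CPM in wild type at 48 h. Nearly all of each sum was the lysosomal marker CD68 (difference 0.67), 3 of the 10 markers were at 0 in each library at 96 h and 4 in each at 48 h, PTPRC, the common leukocyte antigen, had at most 8 counts in a library, and their part in the result was not tested. GALNT5, an enzyme that starts mucin-type glycosylation, had 49.8, 46.3 and 42.9 CPM in knockdown against 19.97, 18.98 and 16.9 CPM in wild type at 96 h and 53.4, 49.2 and 69.6 CPM against 47.4, 44.4 and 43.4 CPM at 48 h. Knockdown was above wild type at both times (difference 0.97, edgeR adjusted p = 0.000653), and over time the log2 change was -0.31 in knockdown and -1.27 in wild type, so wild type moved more. Other late rises were of ABHD11, a mitochondrial hydrolase (0.78 at 96 h and -0.04 at 48 h), and BBC3, the pro-apoptotic PUMA gene (0.55 and -0.01).

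Ribosome production was the clearest group among responses that faded. The list held 50 tested ribosome biogenesis, nucleolar and MYC-driven genes, MYC among them. Of these, 20 were lower at 96 h, where 5.15% of all genes were, and 49 at 48 h, where 18.5% were. The difference was positive and called in 37, where 6.74% of all genes were, and negative in none. Under the other scalings the count was 28 to 39, and without knockdown replicate 3 at 48 h it was 43. The list's median was -0.21 at 96 h and -0.70 at 48 h, and it had been -0.62 at 24 h, with 47 of 50 lower. Its median in single knockdown libraries was -0.16, -0.18 and -0.27 at 96 h and -0.78, -0.74 and -0.59 in replicates 1 to 3 at 48 h. Over time these genes fell in wild type (median -0.71, 48 of 50 called lower) and less so in knockdown (median -0.19, 25 called lower), so wild type moved more than knockdown as the gap closed.

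UTP20, a component of the small subunit processome (ENSG00000120800, chr12:101280109-101386616, plus strand), had 24.3, 21.2 and 20.2 CPM in knockdown and 23.6, 24.2 and 25.3 CPM in wild type at 96 h. At 48 h it had 24.2, 24.9 and 26.8 CPM in knockdown and 46.5, 46.9 and 49.01 CPM in wild type. Groups overlapped at 96 h and were far apart at 48 h, where the wild-type libraries alone stood high (difference 0.75, SE 0.116, edgeR adjusted p = 0.000385). RRS1, needed for the large subunit (-0.07 at 96 h and -1.03 at 48 h), and the nucleolar MYBBP1A (0.00 and -0.71) went the same way. MYC, the transcription factor that drives many of these genes (ENSG00000136997), differed in that both arms moved. It had 293, 302 and 302 CPM in knockdown and 438, 416 and 424 CPM in wild type at 96 h, and 139, 129 and 204 CPM in knockdown and 537, 544 and 495 CPM in wild type at 48 h. Knockdown was below wild type in every library at both times, and replicate 3 at 48 h was the highest of its group. The log2 fold change was -0.51 at 96 h and -1.74 at 48 h, with a difference of 1.23 (SE 0.163, edgeR adjusted p = 0.000179), and MYC rose by 0.93 in knockdown over time. MXD4, which competes with MYC for their partner MAX, had the opposite sign: 0.13 at 96 h and 0.97 at 48 h (difference -0.83, edgeR adjusted p = 2.10e-05).

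MYC and its partner bind the E-box CACGTG, a palindrome that reads the same on both strands. It was in 16 of the 42 promoters found for the ribosome biogenesis list (38.1%) and in 9.56% of tested genes. That list was drawn up to include MYC-driven genes, so its share is not a separate observation about MYC. The E-box was in 140 of 832 (16.8%) of the faded genes that were lower at 48 h and in 7.75% of those higher at 48 h. Late or deepened genes held it in 10.9% (positive difference) and 5.13% (negative difference), and the mitosis list in 12.2%. Of the promoters printed above, those of NORAD, CENPF and PLK1 also hold CACGTG, left there in small letters. In the promoters of UTP20 (chr12:101279855-101280154, plus strand) and MYBBP1A (chr17:4555335-4555634, minus strand) capitals mark it.
UTP20: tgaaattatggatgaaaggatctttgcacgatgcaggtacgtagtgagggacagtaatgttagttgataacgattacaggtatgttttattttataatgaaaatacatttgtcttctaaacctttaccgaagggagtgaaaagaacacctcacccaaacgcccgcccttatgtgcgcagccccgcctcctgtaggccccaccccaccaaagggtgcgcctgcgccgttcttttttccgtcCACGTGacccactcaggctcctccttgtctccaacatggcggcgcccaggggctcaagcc
MYBBP1A: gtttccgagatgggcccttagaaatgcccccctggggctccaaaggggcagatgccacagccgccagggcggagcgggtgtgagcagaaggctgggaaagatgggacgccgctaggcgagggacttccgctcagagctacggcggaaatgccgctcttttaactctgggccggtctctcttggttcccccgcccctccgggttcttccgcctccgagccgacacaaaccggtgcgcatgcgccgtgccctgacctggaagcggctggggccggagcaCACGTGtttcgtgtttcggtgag

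Genes of the mitochondrial ribosome followed the same course at a smaller size. Of 50 tested, 9 were lower at 96 h, where 5.15% of all genes were, and 45 at 48 h, where 18.5% were. A positive difference was called in 18, where 6.74% of all genes had one, and a negative one in none. The positive count was 9 to 23 under the other scalings. It was 30 without knockdown replicate 3 at 48 h, where 15.6% of all genes were positive. MRPS34, a protein of its small subunit, had 100.3, 113 and 105 CPM in knockdown and 119.9, 107 and 112 CPM in wild type at 96 h, and 85.4, 105 and 98.99 CPM in knockdown and 162, 166 and 151 CPM in wild type at 48 h. Its groups overlapped at 96 h and stood apart at 48 h (difference 0.63, edgeR adjusted p = 0.00106). Among 11 noncoding genes that host small nucleolar RNAs, 4 had positive differences, where 6.74% of all genes did, with 2 to 4 under other scalings. They were SNHG15 (0.61), SNHG8 (0.56), SNHG7 (0.44) and EPB41L4A-AS1 (0.53). The SNHG7 call did not hold with upper-quartile, total-count or abundance-dependent scaling or without knockdown replicate 2 or 3 or wild-type replicate 2 at 96 h. Of the 81 cytosolic ribosomal protein genes 52 were lower at 48 h, where 18.5% of all genes were, and none at 96 h, where 5.15% were. The count at 48 h depended on scaling. It was 59 with DESeq2 size factors, 18 under upper-quartile and under total-count scaling, and 0 under abundance-dependent scaling. Only 5 passed for the difference, all positive, a share near the 6.74% of all genes. None was positive under upper-quartile, total-count or abundance-dependent scaling.

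Besides NORAD itself, the genes with the largest positive differences were mostly ones that had been low at 48 h. CYP24A1, the enzyme that inactivates vitamin D hormone (ENSG00000019186, chr20:54153449-54173973, minus strand), had 120.0, 115 and 119 CPM in knockdown at 96 h against 192, 188 and 191 CPM in wild type, and 10.6, 9.45 and 12.3 CPM in knockdown at 48 h against 57.8, 59.4 and 53.5 CPM in wild type. All knockdown libraries were below wild type at both times while both arms were higher at 96 h than at 48 h. The log2 fold change was -0.69 at 96 h and -2.40 at 48 h, with a difference of 1.71 (SE 0.117, edgeR adjusted p = 3.33e-08). CPA4, a secreted carboxypeptidase, had 20, 17.8 and 22.8 CPM in knockdown and 23.3, 24.2 and 21 CPM in wild type at 96 h, and 15.2, 12.9 and 13.1 CPM in knockdown and 54.4, 54.2 and 55.6 CPM in wild type at 48 h. Its groups overlapped at 96 h and were far apart at 48 h (difference 1.82, SE 0.126, edgeR adjusted p = 3.33e-08). Over time, wild type fell by 1.26 and knockdown rose by 0.56 on the log2 scale. ALDH1A3, a retinaldehyde dehydrogenase, rose by 1.66 in knockdown over time, with no call in wild type (0.07), to 307, 291 and 272 CPM at 96 h against 85.3, 72.4 and 117 CPM in knockdown at 48 h. HS3ST1, a heparan sulfate sulfotransferase (1.32 in knockdown and -0.07 in wild type), and the potassium channel KCNK1 (1.40 and -0.09) also rose in knockdown with no call in wild type, while FKBP10, a prolyl isomerase of collagen folding, rose in both (1.83 and 0.27). FKBP10 and KCNK1 were further from wild type at 24 h than later, with log2 fold changes of -2.89 and -3.90 in libraries where NORAD was not lower, as was the ephrin receptor EPHB2 (-3.83 at 24 h, -1.78 at 48 h and -0.92 at 96 h). Also among the 12 largest positive differences were the Wnt ligand WNT16 (1.48) and the urokinase gene PLAU (1.40).

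Keratins, the intermediate filaments of epithelia, faded as well. Of 24 tested keratin and squamous genes, 3 were lower and 3 higher at 96 h, where 5.15% of all genes were lower and 5.35% higher, and 15 were lower and 1 higher at 48 h, where 18.5% were lower and 14.8% higher. For the difference, where 6.74% of all genes had a positive call, 11 had a positive and none a negative difference (9 to 11 under other scalings and 12 without knockdown replicate 3 at 48 h). The list's median was 0.08 at 96 h and -0.84 at 48 h, while over time the wild-type median was -1.08 and the knockdown median -0.03. KRT8 had 1851, 1940.0 and 1843 CPM in knockdown and 1725, 1587 and 1639 CPM in wild type at 96 h, and 1677, 1755 and 2006 CPM in knockdown and 2861, 2834 and 2784 CPM in wild type at 48 h. Its knockdown libraries lay just above the wild-type libraries at 96 h, without a call, and well below them at 48 h (difference 0.83, SE 0.106, edgeR adjusted p = 5.64e-05). KRT18, its partner (0.58), the intestinal KRT20 (1.76) and KRT7 (2.85, at no more than 6.71 CPM) had the same sign, and keratin copies share sequence, so their counts are uncertain. The 8 colon epithelial markers, among them KRT8, KRT18 and KRT19, summed to 5362 to 5651 CPM in knockdown and 4543 to 4993 CPM in wild type at 96 h, and to 4057 to 4892 CPM in knockdown and 6555 to 6855 CPM in wild type at 48 h. EPCAM, an epithelial adhesion molecule, was 0.10 at 96 h and -0.49 at 48 h. Of 19 beta-catenin targets 6 had positive differences, where 6.74% of all genes did, among them the hyaluronan receptor CD44 (0.87), MYC and EPHB2. None was negative, against 3 negative under upper-quartile and total-count scaling.

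**Figure D5:**
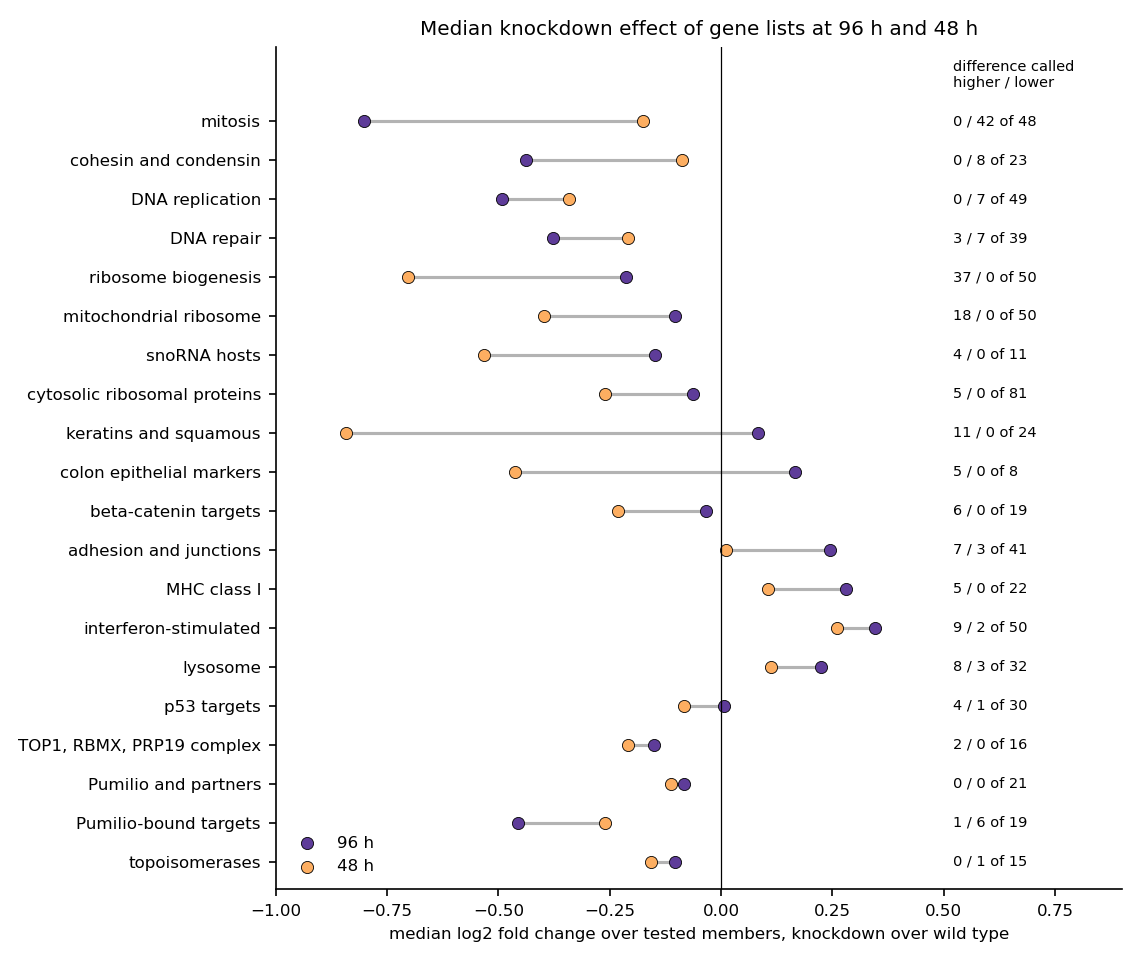
Median log2 fold change of knockdown over wild type over the tested members of 20 gene lists at 96 h (purple) and 48 h (orange), with the number of members whose difference passed with a positive (higher) and a negative (lower) sign. Mitosis runs to -0.80 at 96 h with 42 of 48 negative differences, while ribosome biogenesis and keratins lie closer to wild type at 96 h than at 48 h, with 37 of 50 and 11 of 24 positive differences.

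Rises at 48 h that faded numbered 568, with a median of -0.02 at 96 h and 0.89 at 48 h. Falls that faded numbered 1073, with medians of -0.02 at 96 h and -0.53 at 48 h. In 336 of the 568 and 590 of the 1073, wild type moved further over time than knockdown did. The call at 24 h had the same direction in 573 of the 1073 faded falls (53.4%) and 140 of the 568 faded rises (24.6%), where 12.4% of all genes were called lower and 5.14% higher at 24 h. These shares were not particular to faded genes. Among late or deepened genes they were 109 of 201 falls (54.2%) and 40 of 165 rises (24.2%). Of the 172 late falls, 80 were called lower at 24 h, so late means no call at 48 h and not a first call at 96 h. CCNG2, the gene of the atypical cyclin G2, which slows the cell cycle, had 21.4, 21.4 and 19.3 CPM in knockdown and 17.8, 20.8 and 18.5 CPM in wild type at 96 h, and 14.4, 12.5 and 13.7 CPM in knockdown and 4.64, 4.03 and 5.90 CPM in wild type at 48 h. The knockdown and wild-type libraries overlapped at 96 h and were apart at 48 h (difference -1.36, SE 0.184, edgeR adjusted p = 0.000124), and the log2 change over time was 0.61 in knockdown and 1.97 in wild type. CENPT, which links the centromere to the kinetochore, had 106, 113 and 112 CPM in knockdown and 67.5, 63.8 and 71.01 CPM in wild type at 96 h, and 304, 289.7 and 240.5 CPM in knockdown and 87.4, 89.6 and 78.4 CPM in wild type at 48 h. It was higher in knockdown at both times and was opposite in sign at 96 h to CENPF, CENPE and CENPI (difference -0.998, edgeR adjusted p = 7.08e-05), and it had already been 1.42 at 24 h. Other faded rises were of IRF7, a regulator of interferon genes (0.57 at 96 h and 1.63 at 48 h), the integrin ITGAX (1.19 and 2.28) and the early response factor EGR1 (0.41 and 1.18). COL1A1, the main collagen and a fibroblast marker, was 0.07 at 96 h and 1.07 at 48 h. The tested fibroblast markers summed to 44.2 to 48.7 CPM in knockdown and 39.2 to 49.3 CPM in wild type at 96 h, and to 61.9 to 80.6 CPM in knockdown and 33.9 to 35.1 CPM in wild type at 48 h. Nearly all of each sum was COL1A1, LUM was at 0 in 11 of the 12 libraries and DCN, PDGFRA, PDGFRB, COL3A1 and THY1 had at most 28 counts in any, and their part in the result was not tested.

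A group of 83 genes changed sign. CCND1, cyclin D1 of the G1 phase (ENSG00000110092, chr11:69641087-69654474, plus strand), had 524, 515 and 482 CPM in knockdown against 419.6, 361 and 406 CPM in wild type at 96 h, and 365, 366 and 437 CPM in knockdown against 616, 608 and 608 CPM in wild type at 48 h. Every knockdown library was above wild type at 96 h and below it at 48 h (difference 1.01, SE 0.112, edgeR adjusted p = 1.31e-05). KRT19 showed the same crossing with 1938, 2078 and 2097 CPM in knockdown and 1778, 1582 and 1656 CPM in wild type at 96 h, and 1075, 1212 and 1319 CPM in knockdown and 1993, 2017 and 1949 CPM in wild type at 48 h. The gene of the collagen-processing protease ADAMTS14 had the largest such difference (1.65, SE 0.127, edgeR adjusted p = 1.33e-07), with 45.1, 48.4 and 49.5 CPM in knockdown and 28.9, 27.5 and 28.2 CPM in wild type at 96 h and 12.2, 11.2 and 9.61 CPM in knockdown and 22.1, 21.1 and 18.4 CPM in wild type at 48 h. Crossing the other way were 20 genes that were lower at 96 h and higher at 48 h. They included CENPE, the kinesin that moves chromosomes to the spindle equator (-0.92 at 96 h and 0.35 at 48 h), PRR11 (-0.61 and 0.35), IQGAP3 (-0.56 and 0.42) and the CDK4 and CDK6 inhibitor gene CDKN2C (-0.49 and 0.58).

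Lists tied to NORAD by earlier work are read against the 10.9% of all genes called for the difference. In the complex around NORAD, 8 of 16 genes of the TOP1, RBMX and PRP19 list were lower at 48 h, where 18.5% of all genes were, and 1 at 96 h. Under upper-quartile, total-count and abundance-dependent scaling 4 were lower at 48 h in each, and 3, 2 and 3 at 96 h. For the difference 2 of the 16 passed, a share near that of all genes, RBMX (0.40, edgeR adjusted p = 0.0266) and the nuclear matrix protein HNRNPU (0.38, edgeR adjusted p = 0.0464). Neither call held under total-count scaling or under the abundance-dependent one, nor that of HNRNPU under upper-quartile scaling. Total-count and abundance-dependent scaling each gave 1 negative call in this list. Leaving out 1 library lost the RBMX call for 8 of the 12 libraries and the HNRNPU call for 10 of them. TOP1 itself was -0.04 at 96 h and -0.13 at 48 h, without a call at either time or for the difference. None of 21 Pumilio and deadenylase genes passed in edgeR with the main scaling or in limma voom, 2 passed in DESeq2, and 3 had an unadjusted edgeR p under 0.05. In edgeR 1 was negative under upper-quartile and under total-count scaling, and 3 were positive and 1 negative without knockdown replicate 3 at 48 h. Of 19 tested messages described as Pumilio targets that respond to NORAD, 13 were lower at 96 h, where 5.15% of all genes were, and 10 at 48 h, where 18.5% were. For the difference 6 had negative differences and 1, the histone stem-loop binder SLBP, a positive one (0.43), against 4.2% and 6.74% of all genes. The SLBP call did not hold with total-count or abundance-dependent scaling or without 7 of the 12 libraries. The 6 were PRC1, KIF11, PLK1, CDK1, BUB1B and CENPJ, of which all but CENPJ are also in the mitosis list, so the 2 lists are not separate observations. The calls of BUB1B and CENPJ were each lost without any 1 of 8 libraries. Of 15 topoisomerase and adduct repair genes TOP2A passed and no other did under the main scaling, where 4.2% of all genes had a negative call. Under other scalings 3 (upper-quartile and total-count) or 4 (abundance-dependent) were negative, and 1 was positive with DESeq2 size factors. Among 23 genes next to NORAD on chromosome 20, MYL9, a myosin light chain, had a difference of 0.42 (edgeR adjusted p = 0.031), and the other 22 had no call under the main scaling. Under the other scalings 0 to 2 were positive and 0 to 2 negative, and 6 were positive and none negative without knockdown replicate 3 at 48 h. The MYL9 call did not hold with upper-quartile, total-count or abundance-dependent scaling or without any 1 of 5 libraries.

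Immune and stress lists gave mixed or scaling-dependent counts. Over all genes 6.74% had a positive and 4.2% a negative call for the difference, and 15.6% and 10.8% without knockdown replicate 3 at 48 h. Of 50 interferon-stimulated genes, 18 were higher at 96 h, where 5.35% of all genes were, and 19 at 48 h, where 14.8% were. Of their differences 9 were positive and 2 negative, but 2 were positive and 8 negative under total-count scaling. Without knockdown replicate 3 at 48 h 15 were positive and 8 negative. At 24 h, where 5.14% of all genes were higher, 37 of the 50 were, with a median of 0.98. OAS1, a sensor of double-stranded RNA, crossed zero at a level of at most 3.64 CPM (0.57 at 96 h and -0.61 at 48 h), after 2.65 at 24 h. Of 32 lysosomal genes 8 differences were positive and 3 negative, against none positive and 4 negative under total-count and abundance-dependent scaling. Of 30 p53 targets 4 were positive and 1 negative, against 2 and 5 under total-count scaling. Negative shares of the interferon and p53 lists under the main scaling were near that of all genes. Of 25 sterol synthesis and uptake genes none passed in edgeR with the main scaling or in limma voom, 1 passed in DESeq2, and 4 had an unadjusted edgeR p under 0.05. In edgeR 1 was negative under upper-quartile, 4 under total-count and 2 under abundance-dependent scaling, and 5 were positive without knockdown replicate 3 at 48 h.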

How the data were processed

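RNA was taken from small numbers of HCT116 cells, treated with DNase, selected for poly(A) and made into strand-specific libraries, per the labels' protocols. The authors deposited 1 table of estimated counts per Ensembl transcript for 16 libraries, as whole numbers. Per the submitters' processing notes kallisto, DESeq2 and hg19 were used, with no versions named; the index and settings used are not stated. This tool divides reads between similar transcripts by estimation, so counts of near-identical genes (HLA, keratins) are uncertain. The 18 values of 7 or more digits all ended in 0 and are taken as rounded.

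Counts were summed to 31496 genes by matching transcripts to GENCODE 29 on GRCh38, which also gave the gene coordinates; 156584 of 166096 transcripts matched, and the rest held 2.75% to 3.06% of the counts of the 12 libraries. Genes were kept with filterByExpr over 6 groups (19836 tested), scaled by TMM and fitted over all 16 libraries with edgeR 4.0.16 (glmQLFit, robust, 10 residual degrees of freedom; R 4.3.3), with Benjamini-Hochberg adjustment over all genes tested, a threshold of 0.05 and no minimum fold. The script was checked on simulated data. CPM use the TMM library sizes. At the depth of 36610474 to 51853876 counts a library, spread between libraries and not counting error limits most values, since replicates differed by 7.84 to 55.9 in chi-square per degree of freedom; none were duplicates.

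Alternatives were 4 other scalings (the abundance-dependent one a loess with span 0.3), no filter, a mean of at least 5 CPM, glmTreat against 1.2-fold, DESeq2 1.42.0, limma voom 3.58.1, the 12 libraries alone, a replicate block and each of the 12 libraries left out in turn. The comparison, its 51 gene lists (1212 tested symbols) and the tests were chosen with earlier results of these data known. Genes named were NORAD and ZNF10, the 12 largest differences each way and the 4 lowest p-values of each class, both among genes averaging at least 5 CPM and called in all 12 leave-one-out fits, up to 4 members of each list by p, and every called member of the lists tied to NORAD; others are marked. Both times share no library, so their effects are separate measurements. Promoters came from RefSeq on GRCh38.p14, 250 bases before to 50 after the start, matched by symbol.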

Additional observations from a re-analysis of the deposited data

Results flagged for a closer look

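In 19 named genes the knockdown effect was called in opposite directions at 96 h and 48 h. They were picked from genes already called by edgeR's test of the difference (adjusted p under 0.05), so that call is not a separate result. In 13 of them the effect was positive at 96 h and negative at 48 h. The differences of this kind were 1.65 for ADAMTS14, 1.43 for SECTM1, 1.28 for SCG2, 1.23 for ADAM19, 1.17 for OAS1 and 1.14 for NT5E. They were 1.01 for KRT19, 1.01 for CCND1, 0.89 for MLPH, 0.76 for TGIF1, 0.76 for MYOF, 0.73 for CDH3 and 0.70 for HYAL2. In the other 6 the effect was negative at 96 h and positive at 48 h, with differences of -1.27 for CENPE, -1.20 for C21orf58, -1.18 for CCDC88A, -1.08 for CDKN2C, -0.98 for IQGAP3 and -0.96 for PRR11.

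SECTM1, a gene of a secreted and membrane-bound protein, had 5.84, 7.58 and 7.50 CPM in knockdown and 4.76, 4.65 and 4.97 CPM in wild type at 96 h, and 6.12, 5.83 and 7.97 CPM in knockdown and 12.5, 12.2 and 12 CPM in wild type at 48 h. NT5E, the CD73 enzyme that makes adenosine, had 35.9, 34.6 and 37.5 CPM in knockdown and 27, 28.4 and 22.8 CPM in wild type at 96 h, and 16.01, 12.5 and 20.96 CPM in knockdown and 27.4, 25.2 and 26.4 CPM in wild type at 48 h. With 3 libraries in each group, single libraries were not tested as standing apart gene by gene.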

How the results depend on the processing

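The NORAD difference passed under every alternative run, between 1.38 (abundance-dependent scaling) and 1.66 (without knockdown replicate 3 at 48 h). None of the 169 other genes named by the rule and called for the difference changed sign under any alternative, and of 68 named by the rule without a call 6 did. Signs of other uncalled list members, such as TOP1 and BUB3, were not compared. Requiring 1.2-fold with glmTreat left 600 calls for the difference (343 positive, 257 negative), 444 at 96 h and 2634 at 48 h, and 442 faded, 80 late or deepened and 1 reversed gene. Positive and negative calls were 871 and 1275 under upper-quartile scaling, 631 and 1484 under total-count scaling and 845 and 882 under abundance-dependent scaling. A mean of at least 5 CPM gave 142 reversed genes and put 45.7% of calls on the positive side. DESeq2 gave 2883 calls, limma voom 2159, no filter 1853 and the 12 libraries alone 1789. With 1 of the 12 libraries left out, calls ranged from 1261 to 5250 for the difference (758 to 3104 positive, 503 to 2146 negative) and from 1237 to 3071 at 96 h. Faded genes then ranged from 979 to 4142, late or deepened ones from 205 to 629 and reversed ones from 42 to 235. The highest value of each came without knockdown replicate 3 at 48 h. Calls for the difference moved by over 1.5 times also without knockdown replicate 2 at 96 h (1261), wild-type replicate 3 at 96 h (1348), knockdown replicate 1 at 48 h (1388), wild-type replicate 1 at 48 h (1349) and wild-type replicate 2 at 48 h (1385). The cause of these changes was not tested. Of those 169 genes, 73 lost the call under glmTreat against 1.2-fold, 34 under abundance-dependent scaling, 26 under total counts, 14 with no filter, 13 under upper-quartile scaling, 13 with the replicate block, 12 with the 12 libraries alone, 9 at a mean of at least 5 CPM, 3 in limma voom and 1 in DESeq2. With 1 library left out 1 to 35 lost it, the most without knockdown replicate 2 at 96 h.

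No pairing by replicate number was seen. Correlations of deviations from group means ran from -0.263 to 0.062 over 18 same-numbered pairs and from -0.11 to 0.215 over pairs of different number. With 3 libraries a group these values cannot exclude pairing, and the labels do not state it. With the replicate block 1713 genes were called for the difference, 1071 positive and 642 negative, and NORAD stood at 1.55.

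Genes with few counts have wide errors, and with 3 libraries a group a missing call does not show equal effects. Wild-type cells changed over the same 48 h in culture, so each difference holds the movement of both arms.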
